A study of Mus musculus with 8 samples.

Results

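Neutrophils build their granules in the bone marrow, and the genes described here encode proteins that they store there or hold in large amounts in the cytosol. The 7 genes were chosen by name from the 13341 genes of the expression table: Ngp, S100a8, S100a9, Camp, Lcn2, Ltf and Chil3. All 7 were measured, and all 7 passed the filter on low values. The libraries were made from sorted T cells, and these genes of another cell type are described by organ and by T cell lineage.

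The cells came from MRL/lpr mice aged 14 weeks. These mice lack working Fas through the lpr mutation and are a model of lupus in which lymphocytes accumulate and nephritis follows. Every group shares this genotype. T cells with high CD44, a marker of activated and memory T cells, were sorted into 4 groups of 2 libraries each: kidney CD8+, kidney CD4+, spleen CD8+ and spleen CD4+. The labels name no other strain, treatment or age, and they do not say whether the replicates came from separate mice or from pools. The p-values of the main fit thus rest on the spread between these libraries, shared over the 4 groups and drawn toward that of other genes. A gene at 0 in every kidney library has no spread of its own there. The sort followed the labels: Cd8a had 18302 and 18556 in the kidney CD8+ libraries and 12159 and 12187 in the spleen CD8+ libraries, against 1.11 to 103 in the 4 CD4+ libraries, and Cd4 had 0 to 17.8 in the 4 CD8+ libraries, against 1365 to 2224 in the 4 CD4+ libraries. Here and below a level is a read count divided by one factor per library, and 1 read was worth a level of 0.554 to 1.04. The libraries held 7477544 to 11169003 reads in genes. Library weights that limma estimated from the spread were lowest in the kidney CD4+ libraries, at 0.239, and highest in the spleen CD8+ libraries, at 2.45. The main fit did not use these weights.

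As background, granules form in waves while a neutrophil matures. Primary granules come first and carry myeloperoxidase and serine proteases. Secondary granules follow and carry iron-binding, siderophore-binding and antimicrobial proteins, and tertiary granules carry matrix-degrading enzymes. The transcripts of these proteins are made mostly by immature cells, and circulating neutrophils keep S100a8 and S100a9 at high levels. The factor C/EBP epsilon drives secondary granule genes in the marrow.

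On the mouse mm9 build, in the GENCODE M1 annotation, 3 of the genes lie on chromosome 9. Camp lies at chr9:109749889-109751970 on the minus strand, Ngp at chr9:110322254-110325514 on the plus strand and Ltf at chr9:110921796-110945270 on the plus strand. S100a8, at chr3:90472993-90473956 on the plus strand, and S100a9, at chr3:90496554-90499643 on the minus strand, are neighbours with 22597 bases between them. Lcn2 lies at chr2:32240153-32243317 on the minus strand. Chil3, annotated there as Chi3l3, lies at chr3:105950472-106022425 on the minus strand, and its gene model overlaps Chi3l4, a close copy, so its reads could have been split or shared between the copies. Chil4, the current name of that copy, was not analysed here. All 7 are protein-coding genes.

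The promoters of all 7 genes were found in RefSeq, on GRCm38.p6, as windows of 250 bases before to 50 bases after the start site. These windows were searched on both strands for ATTGC, a core that C/EBP factors recognise, and for TTGCNNAA, a longer form. The motifs were chosen with earlier results of these data and the sequences in view. ATTGC was found in 7 of 7 windows, against 26.4% of 32851 windows of all genes, and TTGCNNAA in 4 of 7, those of Ngp, S100a9, Lcn2 and Ltf, against 10.8%. A match is a description of letters and not a bound site. The 250 bases before the start are shown for 5 genes: 4 of them (Ngp, S100a8, Camp and Lcn2) hold ATTGC within the stretch from 139 to 131 bases before the start, and Ltf holds matches to both forms that overlap. The bounds of that stretch were drawn from these matches themselves, and the share of all windows with a match there was not counted. In S100a9, which is not shown, the ATTGC match lies at −43 to −39 from the start. Capitals mark every match, in the 5′ to 3′ direction of the gene. The windows are chr9:110419558-110419807 (plus strand) for Ngp, chr3:90668821-90669070 (plus) for S100a8, chr9:109849457-109849706 (minus) for Camp, chr2:32387740-32387989 (minus) for Lcn2 and chr9:111019042-111019291 (plus) for Ltf.
Ngp: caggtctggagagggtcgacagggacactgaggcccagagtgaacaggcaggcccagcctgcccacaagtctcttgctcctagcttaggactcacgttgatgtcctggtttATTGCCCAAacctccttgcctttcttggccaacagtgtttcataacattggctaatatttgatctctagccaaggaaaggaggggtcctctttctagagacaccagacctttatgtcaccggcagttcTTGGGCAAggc
S100a8: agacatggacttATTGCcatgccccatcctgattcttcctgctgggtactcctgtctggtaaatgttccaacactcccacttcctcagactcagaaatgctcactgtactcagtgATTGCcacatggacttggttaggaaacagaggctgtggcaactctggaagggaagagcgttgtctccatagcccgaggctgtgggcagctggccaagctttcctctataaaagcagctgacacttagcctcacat
Camp: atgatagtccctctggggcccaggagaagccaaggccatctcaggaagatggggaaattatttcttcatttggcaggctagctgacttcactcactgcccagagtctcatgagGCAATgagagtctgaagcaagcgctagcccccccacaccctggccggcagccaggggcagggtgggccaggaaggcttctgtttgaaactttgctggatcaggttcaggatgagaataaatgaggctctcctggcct
Lcn2: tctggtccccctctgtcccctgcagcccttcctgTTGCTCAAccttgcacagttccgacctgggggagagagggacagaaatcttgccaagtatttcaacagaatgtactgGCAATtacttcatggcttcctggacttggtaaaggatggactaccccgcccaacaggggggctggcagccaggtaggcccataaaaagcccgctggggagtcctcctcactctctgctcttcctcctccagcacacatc
Ltf: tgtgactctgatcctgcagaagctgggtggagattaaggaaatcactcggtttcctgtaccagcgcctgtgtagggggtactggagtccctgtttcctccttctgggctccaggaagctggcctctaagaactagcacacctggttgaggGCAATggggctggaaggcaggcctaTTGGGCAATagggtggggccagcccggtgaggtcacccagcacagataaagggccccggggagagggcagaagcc
In Ngp the 2 forms share letters in ATTGCCCAA, on the plus strand, and in Ltf they share letters in TTGGGCAAT, on the minus strand. S100a8 and Camp hold ATTGC without the longer form, and S100a8 holds it at 2 places. In Chil3 the only ATTGC match lies 27 to 31 bases after the start.

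The granule genes were read in all 4 spleen libraries and hardly at all in the kidney libraries. Over the 7 genes, the kidney CD8+ libraries held 0 and 2 reads and the kidney CD4+ libraries 42 and 2, against 5402 and 6789 reads in the spleen CD8+ libraries and 10369 and 10739 in the spleen CD4+ libraries. This made 0.0502% and 0.0898% of all reads in spleen CD8+ libraries and 0.0928% and 0.144% in spleen CD4+ libraries. In the kidney libraries the share was 0 and 2.06e-05% for CD8+ cells and 4.73e-04% and 2.67e-05% for CD4+ cells, and the count of 0 allows a share of up to 3.26e-05%. Limits and intervals drawn from reads cover counting error only. For every one of the 7 genes, all 4 kidney libraries lay below all 4 spleen libraries, as did 3.6% of the 10845 genes tested. In bulk samples such as these, fewer cells of a type and less RNA per cell cannot be told apart.

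**Figure D1:**
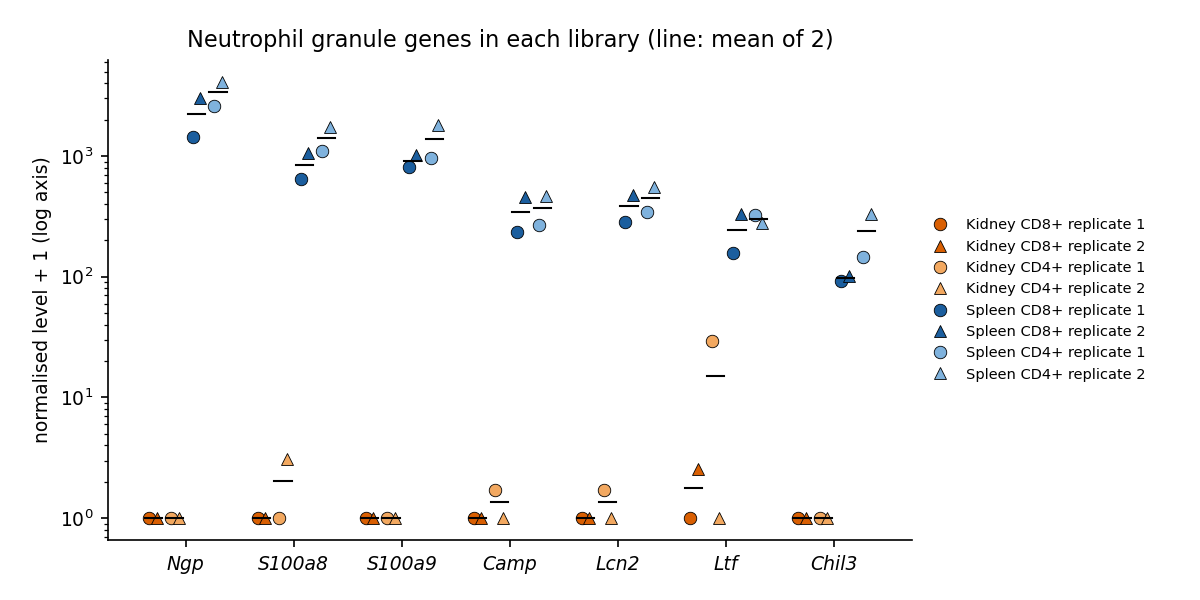
Normalised level plus 1, on a log axis, of the 7 granule genes in each of the 8 libraries, with kidney groups left of spleen groups and a line at the mean of 2. Spleen libraries sit between 91.6 (Chil3) and 4114 (Ngp), and the highest kidney value is 28.2 (Ltf).

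S100a8 and S100a9 encode the subunits of calprotectin, a calcium-binding complex that withholds zinc and manganese from microbes and makes up much of the protein in the neutrophil cytosol. S100a8 had levels of 0 and 0 in kidney CD8+ libraries and 0 and 2.08 in kidney CD4+ libraries, against 640 and 1058 in spleen CD8+ libraries and 1095 and 1727 in spleen CD4+ libraries. S100a9 had 0 in all 4 kidney libraries, against 804 and 1024 in spleen CD8+ libraries and 962 and 1798 in spleen CD4+ libraries. The kidney and spleen values did not overlap for either gene. S100a8 was at least 671-fold lower in kidney than in spleen CD8+ cells, counting 3 reads over the kidney group as the floor, and in kidney CD4+ cells its 2 reads stood at 0.0626% of the spleen level, with an exact 95% counting interval of 0.00758% to 0.226%. S100a9 was at least 738-fold lower in kidney than in spleen CD8+ cells and at least 1023-fold lower in CD4+ cells.

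Ngp encodes neutrophilic granule protein, a cystatin-related protein of mouse secondary granules. Its level was 0 in all 4 kidney libraries, against 1430 and 3032 in spleen CD8+ libraries and 2613 and 4114 in spleen CD4+ libraries. It had more reads than any of the other 6 genes, 14781 over the spleen libraries, and was at least 1726-fold lower in kidney than in spleen CD8+ cells and at least 2538-fold lower in CD4+ cells. In both organ comparisons it had the smallest p-value of the 10845 genes tested.

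Camp encodes cathelicidin, the precursor of an antimicrobial peptide. Its level was 0 and 0 in kidney CD8+ libraries and 0.705 and 0 in kidney CD4+ libraries, against 232 and 459 in spleen CD8+ libraries and 269 and 468 in spleen CD4+ libraries. Lcn2 encodes lipocalin 2, which binds bacterial siderophores and which injured kidney tubules also make. Its level was 0 and 0 in kidney CD8+ libraries and 0.705 and 0 in kidney CD4+ libraries, against 285 and 476 in spleen CD8+ libraries and 341 and 550 in spleen CD4+ libraries. Both genes thus had 1 read in all kidney libraries together. In kidney CD8+ cells Camp was at least 269-fold lower and Lcn2 at least 300.4-fold lower than in spleen CD8+ cells. In kidney CD4+ cells the 1 read stood at 0.121% of the spleen level for Camp (interval 0.00307% to 0.677%) and at 0.0995% for Lcn2 (0.00252% to 0.555%).

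Lcn2 was near 0 in the kidney libraries, and transcripts of nephron cells were read in the same libraries. Whether these transcripts came from injured cells was not tested. The summed level of 12 proximal tubule markers was 5994 and 24048 in kidney CD8+ libraries and 8504 and 20798 in kidney CD4+ libraries, against 0 and 4.77 in spleen CD8+ libraries and 8.87 and 0 in spleen CD4+ libraries. For 5 distal nephron markers it was 1734 and 4644 in kidney CD8+ and 1013 and 9640 in kidney CD4+ libraries. In spleen that sum was 4.71 and 2.86 in CD8+ libraries and 0 in both CD4+ libraries.

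Ltf encodes lactoferrin, an iron-binding protein of secondary granules. Its level was 0 and 1.54 in kidney CD8+ libraries and 28.2 and 0 in kidney CD4+ libraries, against 156 and 332 in spleen CD8+ libraries and 321 and 278 in spleen CD4+ libraries. Of the 46 reads of the 7 genes in kidney, 42 were Ltf reads, and 40 of those were in kidney CD4+ replicate 1. That library held 0 reads of Ngp, S100a8, S100a9 and Chil3 and 1 read each of Camp and Lcn2. In spleen libraries Ltf stood at 0.0675 to 0.123 of the level of Ngp. Over both replicates, kidney CD4+ cells had 5.52% of the Ltf level of spleen CD4+ cells (interval 3.92% to 7.58%), and kidney CD8+ cells had 0.353% of that of spleen CD8+ cells (interval 0.0427% to 1.28%). Of 14 other secondary and tertiary granule genes in the table, 8 had reads in kidney CD4+ replicate 1 and 9 in kidney CD4+ replicate 2, and of 15 receptor and late neutrophil genes, 6 had reads in replicate 1 and 11 in replicate 2.

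Chil3 encodes a chitinase-like lectin made by neutrophils and by some macrophages. Its level was 0 in all 4 kidney libraries, against 91.6 and 101 in spleen CD8+ libraries and 146 and 330 in spleen CD4+ libraries. It was at least 78.9-fold lower in kidney than in spleen CD8+ cells and at least 173-fold lower in CD4+ cells. Ngp, S100a9 and Chil3 thus had 0 reads in all kidney libraries, as did 0.36% of the genes tested. Such genes passed the filter on low values through spleen alone, which limits what this share can show.

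In CD8+ cells, all 7 granule genes were lower in kidney than in spleen by limma at an adjusted p below 0.05, where 0.341% of the 10845 genes tested were called lower and 1.21% higher. The log2 fold change, kidney minus spleen on the log2(level + 1) scale, was −11.02 ± 0.59 (SE) for Ngp (adjusted p = 3.07e-04), −9.83 ± 0.62 for S100a9 (adjusted p = 4.64e-04) and −9.69 ± 0.72 for S100a8 (adjusted p = 9.00e-04). Lcn2 and Camp followed at −8.53 ± 0.72 and −8.35 ± 0.75, then Ltf at −7.16 ± 1.39 (adjusted p = 0.0478) and Chil3 at −6.60 ± 0.81 (adjusted p = 0.00826). With levels at 0 these fold changes depend on the value of 1 added, and they are not bounds. Ltf lost its call under 11 of 20 alternatives, with adjusted p from 3.10e-06 to 0.421 over all 20. Without spleen CD8+ replicate 2, 4 of the 7 genes were called.

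In CD4+ cells, 6 of the 7 granule genes were lower in kidney than in spleen, where 0.157% of the genes tested were called lower and 0.802% higher. The log2 fold change was −11.68 ± 0.59 for Ngp (adjusted p = 2.25e-04), −10.36 ± 0.62 for S100a9 (adjusted p = 3.61e-04) and −9.61 ± 0.72 for S100a8 (adjusted p = 9.49e-04). It was −8.38 ± 0.72 for Lcn2 (adjusted p = 0.00174), −8.09 ± 0.75 for Camp (adjusted p = 0.00229) and −7.78 ± 0.81 for Chil3 (adjusted p = 0.00363). Ltf, at −5.79 ± 1.39, was not called (adjusted p = 0.137, and 4.50e-04 without kidney CD4+ replicate 1, the range over 20 alternatives being 4.50e-04 to 0.728). When only the 4 CD4+ libraries entered the fit, none of the 7 was called by limma, with adjusted p of 0.0526 for Ngp, while 7 of 7 had an unadjusted p under 0.05 in the fit of all libraries, edgeR called 6 and DESeq2 called 7. Without spleen CD4+ replicate 2, 3 of the 7 were called.

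The organ difference was then compared between the lineages. The difference in CD8+ cells minus that in CD4+ cells ran from −1.37 for Ltf (95% interval −5.86 to 3.13) to 1.18 for Chil3 (−1.44 to 3.80), and no granule gene was called by limma, edgeR or DESeq2 (limma adjusted p = 0.999, with 0 at an unadjusted p under 0.05). No gene of the 10845 was called by limma either, with 362 at an unadjusted p under 0.05, none by edgeR and 12 by DESeq2. Ngp, S100a9 and Chil3 were at 0 in every kidney library. For these genes the value is the spleen difference between lineages with its sign turned, so it is no separate test of the organ difference. Within kidney, where the 7 genes were at or near 0, none was called between CD8+ and CD4+ cells by limma (adjusted p = 0.780 or above, with 0 at an unadjusted p under 0.05), edgeR or DESeq2, with 0.083% of the genes tested called lower and 0.12% higher.

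**Figure D2:**
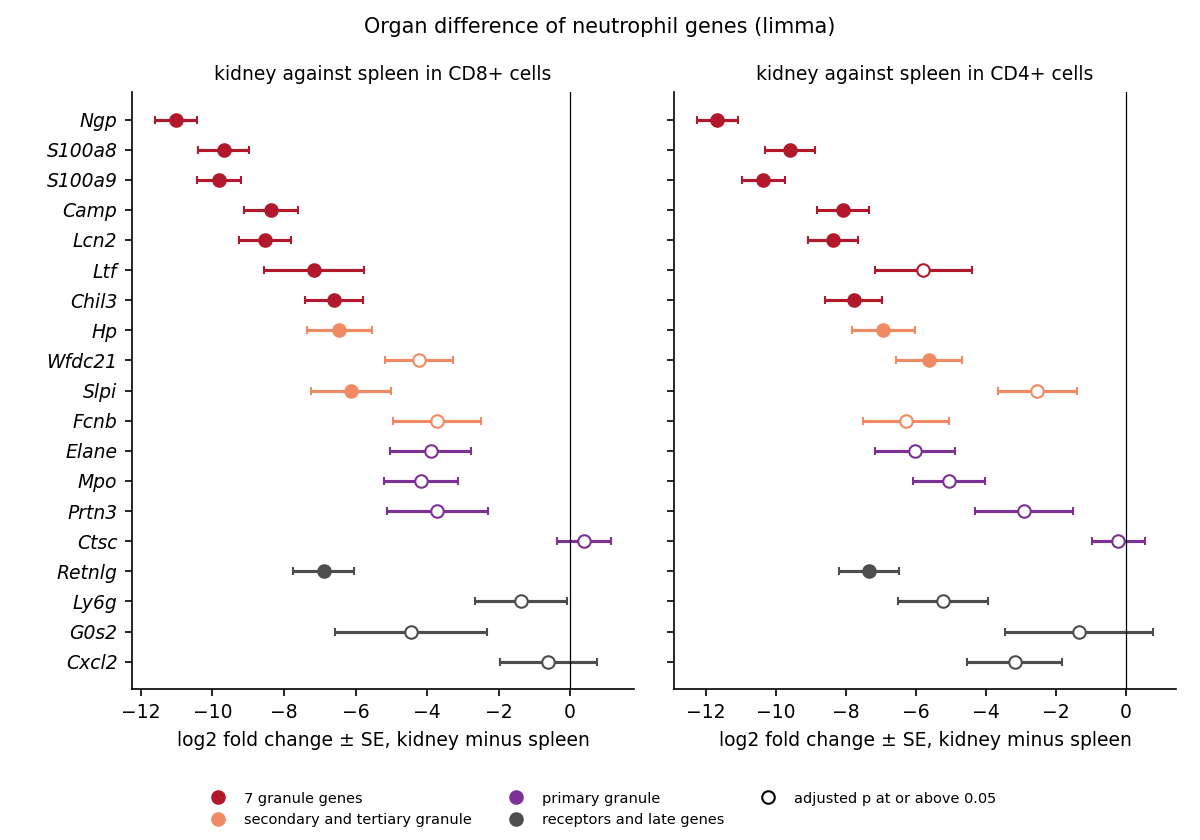
Log2 fold change, kidney minus spleen, with its standard error, in CD8+ cells (left) and CD4+ cells (right), for the 7 granule genes and 12 other neutrophil genes. Filled points have an adjusted p below 0.05; the granule genes lie between −11.68 and −5.79, and Ctsc lies at 0.38 in CD8+ and −0.21 in CD4+ cells.

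Within spleen, CD8+ cells had lower mean levels than CD4+ cells for all 7 granule genes, but no difference passed the test. The share of all genes tested with a lower mean was not counted, and their median log2 difference was −0.05. Ngp averaged 2231 ± 1133 in spleen CD8+ libraries and 3363 ± 1062 in spleen CD4+ libraries (SD, n = 2 each), a log2 difference of −0.65 (95% interval −1.997 to 0.69). S100a8 averaged 849 ± 295 in CD8+ and 1411 ± 447 in CD4+ libraries (−0.74, interval −2.37 to 0.90). S100a9 averaged 914 ± 155 in CD8+ and 1380.0 ± 591 in CD4+ libraries (−0.54, interval −1.94 to 0.87). Camp, with 345 ± 161 in CD8+ and 368 ± 141 in CD4+ libraries, had the smallest log2 difference, −0.12 (interval −1.84 to 1.60). Chil3, with 96.4 ± 6.82 in CD8+ and 238 ± 131 in CD4+ libraries, had the largest, −1.18 (interval −3.03 to 0.67). Limma, edgeR and DESeq2 called 0 of the 7, limma gave 0 at an unadjusted p under 0.05, and limma called 0.231% of the genes tested lower and 0.129% higher. For S100a8 and Chil3 both CD8+ libraries lay below both CD4+ libraries, as did 26% of the genes tested. Each interval includes 0, so these data fix no direction. Without spleen CD8+ replicate 1 the log2 difference was 0.37 for Camp, 0.14 for Lcn2 and 0.15 for Ltf, and without spleen CD4+ replicate 2 it was 0.28 for Camp and 0.11 for Lcn2.

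Most of the genes were high and low in the same spleen libraries. Of the 7 genes, 7 were lowest in spleen CD8+ replicate 1 and 6 were highest in spleen CD4+ replicate 2, and the exception, Ltf, was highest in spleen CD8+ replicate 2. Replicate 2 was above replicate 1 for 7 of 7 genes in CD8+ cells and for 6 of 7 in CD4+ cells. The share of all genes tested with these orders was not counted. The 7 genes were read in the same libraries, so they are not independent. The highest over the lowest spleen library ranged from 1.93 for Lcn2 to 3.61 for Chil3, with 2.88 for Ngp.

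Each ratio given here ranged less over the spleen libraries than the levels of the 2 genes in it. The level of S100a8 over that of S100a9 was 0.796 and 1.03 in spleen CD8+ libraries and 1.14 and 0.961 in spleen CD4+ libraries. Camp stood at 0.162 and 0.151 of the level of Ngp in CD8+ libraries and at 0.103 and 0.114 in CD4+ libraries, and Lcn2 at 0.199 and 0.157 in CD8+ and at 0.130 and 0.134 in CD4+ libraries. Chil3 varied most, at 0.0641 and 0.0334 of Ngp in CD8+ and at 0.0558 and 0.0803 in CD4+ libraries. With 2 libraries a group these ratios are given without a test.

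**Figure D3:**
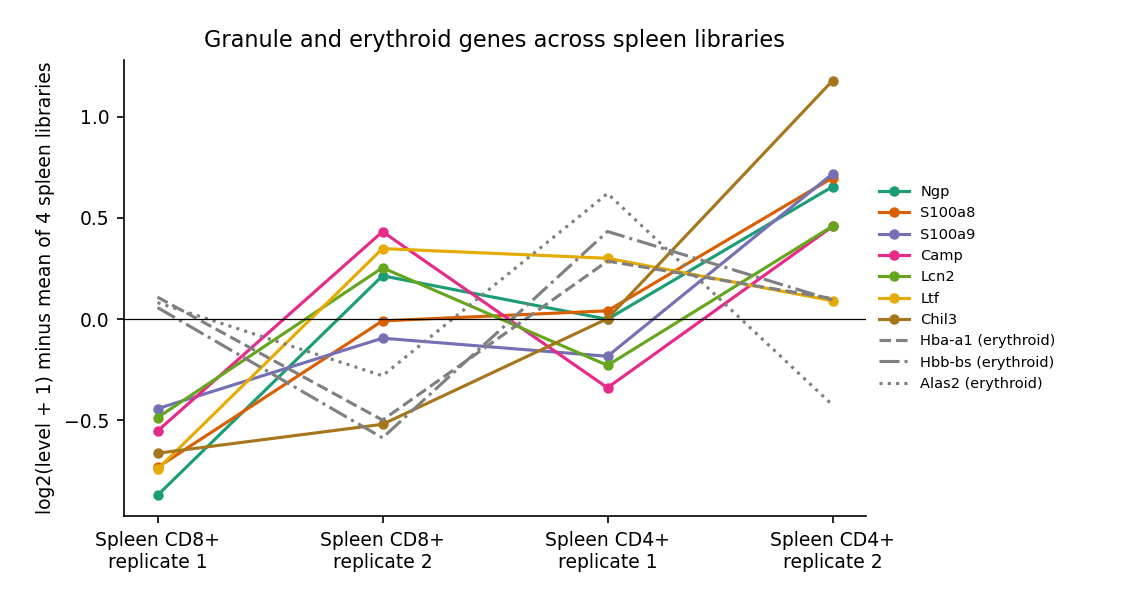
Log2(level + 1) in each spleen library minus the mean of the 4 spleen libraries, for the 7 granule genes and, in grey, 3 erythroid genes; lines join the values of 1 gene. All 7 granule genes are lowest in CD8+ replicate 1, while the erythroid genes are not.

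Per kilobase of their longest transcript, the genes fell into an order that was nearly the same in each spleen library. S100a8 came first in all 4, with a level per kilobase of 2883 ± 1143 (SD, n = 4). Ngp, at 2298 ± 912, and S100a9, at 2210 ± 855, exchanged places between libraries and did not differ beyond their spread. Camp, at 594 ± 206, came next in every library, followed by Lcn2, at 301 ± 88.4. Chil3, at 109 ± 72.3, and Ltf, at 99.1 ± 29.5, exchanged the last places. Of the summed level per kilobase of the 7 genes, S100a8 took 33.7% ± 2.06, Ngp 26.8% ± 2.66 and S100a9 26.3% ± 3.31 (SD, n = 4).

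**Figure D4:**
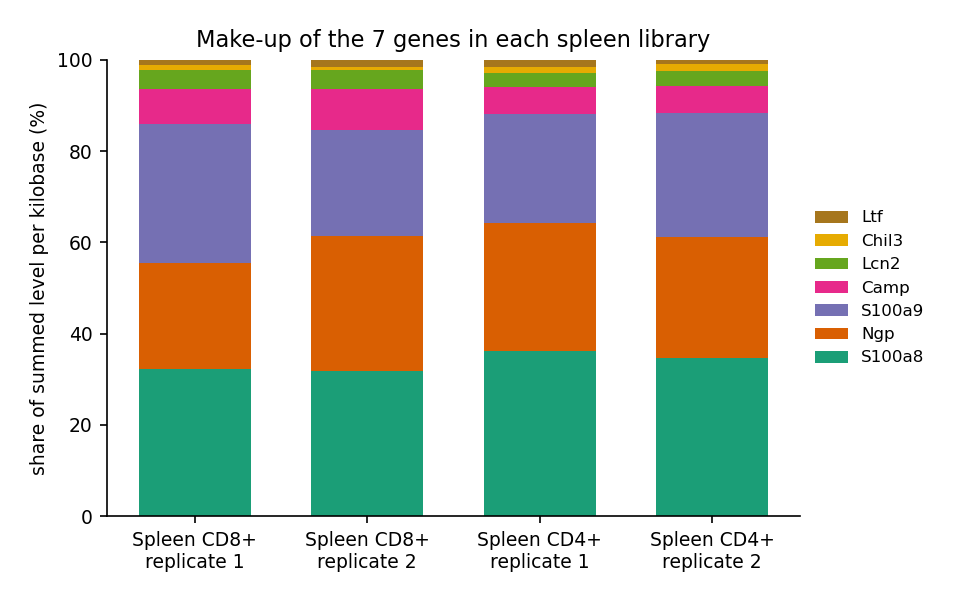
Share of each granule gene in the summed level per kilobase of the 7 genes, in the 4 spleen libraries. S100a8 takes 31.9% to 36.3% in every library, while Ltf and Chil3 take 0.777% to 1.68%.

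Other genes of neutrophils were taken from lists of granule, receptor and late genes. Of the 14 other secondary and tertiary granule genes, 12 were tested. In CD8+ cells 2 of the 12 were lower in kidney: Hp, which encodes haptoglobin (−6.45 ± 0.90, adjusted p = 0.0136), and Slpi, a protease inhibitor gene (−6.12 ± 1.12, adjusted p = 0.0369). In CD4+ cells 2 were lower: Hp (−6.94 ± 0.90, adjusted p = 0.0118) and Wfdc21, which encodes a WAP-domain protein (−5.62 ± 0.94, adjusted p = 0.0331). By edgeR 1 of the 12, Hp, was called lower in each lineage, and by DESeq2 6 were called lower in CD8+ cells and 4 lower and 1 higher in CD4+ cells. In CD8+ cells Hp lost its call under 5 of 20 alternatives, each of which left out 1 library (adjusted p up to 0.230, without spleen CD8+ replicate 2), and Slpi under 8 (up to 0.320, without spleen CD8+ replicate 1). In CD4+ cells Hp lost its call under 5 of 20 (up to 0.206, without spleen CD4+ replicate 2) and Wfdc21 under 8 of 19 (up to 0.426, with library weights). The median log2 fold change of the 12 was −3.44 in CD8+ and −1.93 in CD4+ cells, beside 0 in CD8+ and −0.08 in CD4+ cells over all genes tested. Hp had 0 in all 4 kidney libraries, against 52.5 and 142 in spleen CD8+ libraries and 85.9 and 172 in spleen CD4+ libraries. Fcnb, the ficolin B gene, also had 0 in all 4 kidney libraries, against 4.71 and 29.6 in spleen CD8+ and 34.9 and 168 in spleen CD4+ libraries (adjusted p = 0.274 in CD8+ and 0.0626 in CD4+ cells). Genes of this list that T cells and macrophages also read did not follow: Pglyrp1 had 2141 to 4239 in kidney libraries and 2151 to 3970.0 in spleen libraries, and Lyz2 had 921 to 3812 in kidney and 443 to 1371 in spleen libraries.

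None of the 4 primary granule genes tested passed limma in either lineage, with 3 at an unadjusted p under 0.05 in CD8+ cells and 2 in CD4+ cells, 0 called by edgeR and 2 called lower by DESeq2 in each. Elane, which encodes neutrophil elastase, had 0 in all 4 kidney libraries, against 6.06 and 30.6 in spleen CD8+ libraries and 36.6 and 111 in spleen CD4+ libraries (adjusted p = 0.194 in CD8+ and 0.0574 in CD4+ cells). Mpo, which encodes myeloperoxidase, had 0 and 0.771 in kidney CD8+ libraries and 0 in both kidney CD4+ libraries, against 16.8 and 31.5 in spleen CD8+ and 19.4 and 53.5 in spleen CD4+ libraries (adjusted p = 0.113 in CD8+ and 0.0722 in CD4+ cells). The level of Elane was 0.424% and 1.01% of that of Ngp in spleen CD8+ libraries and 1.40% and 2.70% in spleen CD4+ libraries. Ctsc, the gene of the protease that activates granule serine proteases in many cell types, had 172 to 1248 in kidney libraries and 490 to 912 in spleen libraries.

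Of 10 receptor and late neutrophil genes tested, Retnlg, which encodes resistin-like gamma, was the 1 called lower in kidney in both lineages. It had 0 in all 4 kidney libraries, against 103 and 134 in spleen CD8+ libraries and 94.8 and 278 in spleen CD4+ libraries (−6.89 ± 0.86, adjusted p = 0.00876 in CD8+ cells and −7.35 ± 0.86, adjusted p = 0.00678 in CD4+ cells). Its call was lost in CD8+ cells without kidney CD8+ replicate 1 (adjusted p = 0.0566) or without spleen CD8+ replicate 1 (0.141) or 2 (0.150), and in CD4+ cells under 4 of 20 alternatives (up to 0.177, without spleen CD4+ replicate 2). Ly6g, a surface marker of neutrophils, had 0 in all kidney libraries, against 0 and 5.73 in spleen CD8+ and 30.5 and 44.0 in spleen CD4+ libraries (adjusted p = 0.789 in CD8+ and 0.142 in CD4+ cells). The receptor genes differed in level. Csf3r, the receptor gene of granulocyte colony-stimulating factor, had 0 to 9.25 in kidney and 0.554 to 6.04 in spleen libraries. Cxcr2, a receptor gene for neutrophil chemokines, had 0 to 1.41 in kidney and 0 to 3.82 in spleen libraries. The formyl peptide receptor genes Fpr1 and Fpr2 were read in both organs, Fpr1 at 0 to 59.2 in kidney and 0 to 33.6 in spleen libraries, and Fpr2 at 0 to 37.5 in kidney and 5.39 to 9.55 in spleen libraries. Il1r2, a decoy receptor of interleukin 1 that some T cells read, was the 1 neutrophil gene called between the lineages in spleen: 8.75 and 21.0 in CD8+ libraries, against 1895 and 1626 in CD4+ libraries (−6.91 ± 0.86, adjusted p = 0.0193). That call was lost when any 1 of the spleen libraries was left out (adjusted p = 0.154 to 0.326) and without kidney CD8+ replicate 1 (0.0507). The 4 myeloid transcription factor genes tested, among them Cebpa, Cebpb and Gfi1, gave 0 calls in the organ comparisons by limma, edgeR and DESeq2, and 0 at an unadjusted p under 0.05 by limma. Cebpe, the gene of C/EBP epsilon, was not among the 13341 genes of the expression table, so it was not tested. Among the receptors of the granule proteins, Lrp2, which encodes the tubular uptake receptor megalin, was higher in kidney in both lineages (5.19 ± 0.96, adjusted p = 0.0381 in CD8+ cells and 5.95 ± 0.96, adjusted p = 0.0288 in CD4+ cells), and it is also on the proximal tubule list. Lrp2 lost its call under 11 of 20 alternatives in CD8+ cells and 9 of 20 in CD4+ cells, edgeR among them (adjusted p = 0.0725 in CD8+ and 0.0647 in CD4+ cells).

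**Figure D5:**
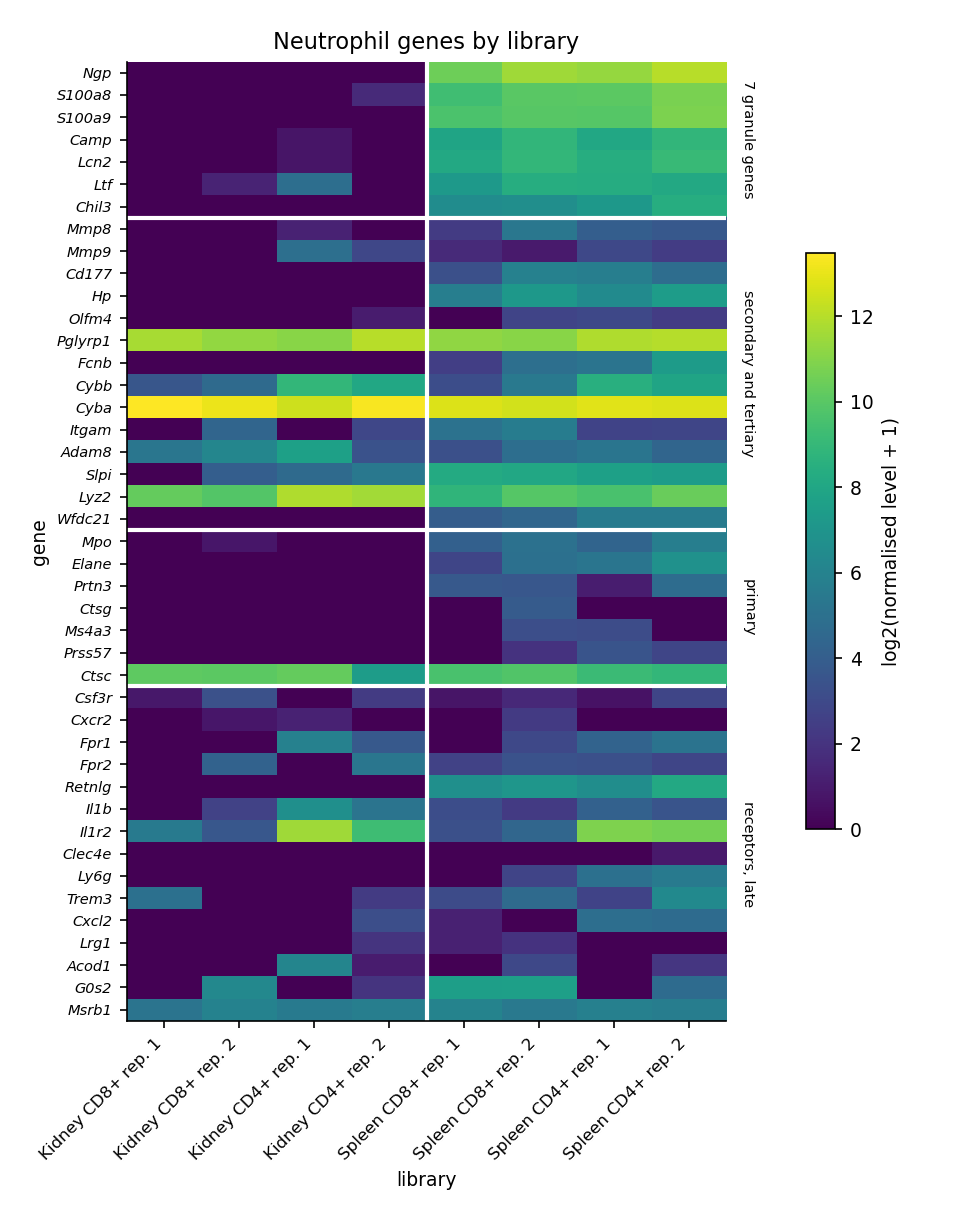
Log2(level + 1) of 43 neutrophil genes in the 8 libraries, kidney left of spleen, grouped by list. The 7 granule genes, Hp and Retnlg are dark in kidney and bright in spleen, while Cyba, Pglyrp1, Lyz2 and Ctsc are bright in both organs.

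Markers of other cell types moved with the organ as well. The summed level of 12 erythroid markers was 735 and 1843 in kidney CD8+ libraries and 658 and 839 in kidney CD4+ libraries, against 20909 and 13649 in spleen CD8+ and 25913 and 20288 in spleen CD4+ libraries. Car2 held 721 and 1660 of it in kidney CD8+ libraries, 636 and 415 in kidney CD4+ libraries, and 125 to 312 in spleen libraries. By limma 7 of 9 tested erythroid markers were lower in kidney and 1, Car2, was higher in CD8+ cells, and 3 were lower in CD4+ cells, while edgeR called 2 lower and 1 higher in CD8+ cells and 1 lower in CD4+ cells. The 7 include Hbb-b2 and Hbb-bt, which had identical values in every library, so the sums and the 7 limma calls count the same reads again. Alas2 and Klf1 had 0 in all kidney libraries. The order of the erythroid markers among spleen libraries differed from that of the granule genes: the erythroid sum was highest in spleen CD4+ replicate 1 and lowest in spleen CD8+ replicate 2, while the summed granule level was 3638 and 6483 in spleen CD8+ and 5747 and 9264 in spleen CD4+ libraries. The summed level of 6 B cell markers was 233 to 247 in kidney CD8+ and 182 to 220 in kidney CD4+ libraries, against 900 to 989 in spleen CD8+ and 393 to 449 in spleen CD4+ libraries. Most of it was Cd79b, which averaged 863 in spleen CD8+ and 296 in spleen CD4+ libraries. Other B cell markers did not share this order: Ms4a1 averaged 20.2 in spleen CD8+ and 43.8 in spleen CD4+ libraries. Cd22 averaged 11.9 and 21.6 in the same groups, and Cd79a 41.3 and 40.8. Of 11 tested monocyte and macrophage markers, limma and edgeR each called 2 higher in kidney in CD8+ cells and 1 in CD4+ cells. DESeq2 called 3 higher in CD8+ and 5 in CD4+ cells, and none was called lower by any of these tools. By limma C1qb was higher in kidney in both lineages (2.96 ± 0.45, adjusted p = 0.0189 in CD8+ cells and 3.09 ± 0.45, adjusted p = 0.0186 in CD4+ cells). C1qb lost its call under 7 of 20 alternatives in CD8+ cells (adjusted p up to 0.204, without spleen CD8+ replicate 1) and 6 of 20 in CD4+ cells (up to 0.222, with library weights). The summed level of the 12 in the table was 33712 to 35106 in kidney CD8+ and 5930 to 8954 in kidney CD4+ libraries, against 48449 to 48724 in spleen CD8+ and 2546 to 3598 in spleen CD4+ libraries, and in CD8+ cells most of it was Ly6c2, which CD8+ T cells also read. The summed level of 11 T cell identity genes was 112958 to 130553 in kidney libraries and 90992 to 112853 in spleen libraries. The part of these other cell types in the granule gene results was not tested.

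Of all genes tested outside the 7, those whose profile over the 8 libraries was most like the mean profile of the 7 were Retnlg and Hp. The root mean square difference of the centred log2(level + 1) profiles was 0.897 for Retnlg and 1.09 for Hp. Next came the erythroid genes Alas2 (1.25) and Hbb-bs (1.44), and all 4 lay within the 0.207 (Lcn2) to 1.66 (Ltf) of the 7 genes themselves, so this measure does not set neutrophil genes apart from erythroid genes. They were followed by Hbb-b2 and Hbb-bt (1.67 each, with identical values in every library), Hba-a1 (1.68), and then Gpr15 (1.75), a homing receptor gene of T cells. The likeness rests mostly on the step between organs, which all 8 of these genes share.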

How the data were processed

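RNA of CD44hi T cells was amplified with a SMART-Seq v4 kit, per the labels' protocols. Reads were aligned to mm9, and STAR 2.5.3 and TopHat2 2.1.0 are named, per the submitters' processing notes. No source used here names the counting tool, the annotation or the strand setting. The deposited file is 1 table of normalized counts, a signal value for each of 13341 genes in 8 libraries, made by the authors. Dividing each library by its smallest value gave whole reads for 100% of the values (tolerance 1e-06), so depth could be recovered.

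The main test was limma 3.58.1 (R 4.3.3) on log2(level + 1) over all 4 groups, 2-sided, with an intensity trend and Benjamini-Hochberg adjustment over 10845 genes (those reaching a level of 10 in 2 or more libraries), called at an adjusted p below 0.05. With 2 libraries a group, the spread is shared over groups. The alternatives were edgeR 4.0.16 and DESeq2 1.42.0 on the recovered reads, other values added before the log, filters, scalings, library weights, a replicate block and each library left out. The statistics were also run on simulated reads that had the same spread setting for all genes and libraries. That setting differs from these libraries, so no result here rests on that run. Transcript lengths and positions came from GENCODE M1 and promoters from RefSeq.

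Named genes were the 7 members, up to 4 genes a list with the smallest adjusted p between organs, the 8 closest profiles, and Cd4, Cd8a, Cd44 and Fas. Further genes (Lyz2, Pglyrp1, Cyba, Csf3r, Cxcr2, Fpr1, Fpr2, Il1r2, Klf1, Ly6c2) were named after their values were seen. The members and lists were chosen with earlier results of these data known.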

Additional observations from a re-analysis of the deposited data

How the results depend on the processing

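Each result was recomputed under up to 20 alternatives. Ngp, S100a8, S100a9 and Lcn2 kept their call in CD8+ cells under all 20. In CD4+ cells the count of granule genes called lower, 6, became 0 when only the libraries compared were fitted and 3 to 7 when 1 library was left out, with 3 without spleen CD4+ replicate 2; in CD8+ cells the count of 7 became 4 to 7. In kidney, CD8+ against CD4+ cells gave 0 calls among the 7 genes, and 0 to 1 with 1 library left out, the 1 being without kidney CD4+ replicate 2. Genes called lower in kidney CD4+ cells, 17 in all, were 11 with edgeR, 79 with DESeq2, 0 with only the libraries compared, 6 with library weights and 3 to 1527 with 1 library left out. In kidney CD8+ cells, 37 became 129 with DESeq2, 175 with library weights and 4 to 258 with 1 library left out. In spleen, CD8+ against CD4+ cells, 25 became 51 with 10 added before the log, 38 with median-of-ratios scaling (chosen after seeing the data), 165 with DESeq2, 95 with only the libraries compared, 449 with library weights, 12 with the replicate block and 1 to 199 with 1 library left out.

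Directions turned for some differences that were not called. Between lineages in spleen, leaving out 1 library gave −0.61 to 0.37 for Camp, −0.60 to 0.14 for Lcn2 and −0.94 to 0.15 for Ltf. The organ difference in CD8+ minus that in CD4+ cells became 0.60 for S100a8, 0.067 for Camp and 0.18 for Lcn2 with 10 added before the log, and 0.17 for S100a8 and 0.0045 for Lcn2 with scaling by library total. With 1 library left out it was −0.88 to 0.74 for S100a8, −0.76 to 0.23 for Camp, −0.54 to 0.23 for Lcn2 and −3.80 to 1.07 for Ltf. Ctsc in CD4+ cells was 0.32 with edgeR, 0.31 with DESeq2 and −1.64 to 1.21 with 1 library left out, and G0s2 was −3.68 to 1.02 with 1 library left out. The cause was not tested.

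The labels do not say whether libraries of one number share mice. Over all genes tested, the correlation of replicate differences between groups was −0.155 to 0.0559, below the 0.1 that was required to treat the numbers as pairs. Replicate 2 was above replicate 1 for 7 of 7 granule genes in spleen CD8+ and 6 of 7 in spleen CD4+ cells, with no share of all genes counted beside it. With the replicate block, 6 granule genes were called lower in CD4+ and 6 in CD8+ cells, where the adjusted p of Ltf was 0.0789. Scaling by library total moved the median of all genes by −0.14 between organs in CD4+ cells, −0.19 between lineages in spleen and −0.12 between lineages in kidney. With 2 libraries a group and whole-read steps of 0.554 to 1.04, kidney levels below about 3 reads cannot be ordered.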

Other observations

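Genes of basophils and eosinophils, from a marker list of which 4 genes were in the table, were read in some of the same spleen libraries. Prss34, a basophil protease gene, had 0 in all 4 kidney libraries, against 0 and 186 in spleen CD8+ libraries and 0 and 109 in spleen CD4+ libraries. Mcpt8, another basophil protease gene, had 0 and 0 in kidney CD8+ and 4.93 and 0 in kidney CD4+ libraries, against 0 and 28.6 in spleen CD8+ and 0 and 27.6 in spleen CD4+ libraries. Prg2, which encodes the eosinophil major basic protein, had 0 in all 4 kidney libraries, against 4.71 and 23.9 in spleen CD8+ and 23.3 and 23.3 in spleen CD4+ libraries. In spleen, Prss34 and Mcpt8 were thus read in replicate 2 of each lineage and listed at 0 in replicate 1. No gene of the list was called between organs by limma (adjusted p = 0.145 or above), with Prg2 at an unadjusted p under 0.05 in each lineage, edgeR called 0, and DESeq2 called 1 lower in CD4+ cells.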
